A study of Mus musculus with 88 samples.

Results

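The developmental homeobox genes outside the Hox clusters were followed here through the loss of Polycomb proteins in mouse embryonic stem cells (ESCs) and during differentiation. The set holds 46 genes, chosen by name: Dlx1 to Dlx6, the LIM homeobox genes Lhx3, Lhx4, Lhx5, Lhx6, Lhx8 and Lhx9, the Nkx genes Nkx2-1, Nkx2-2, Nkx2-3, Nkx2-9, Nkx3-2, Nkx6-1 and Nkx6-2, Six2, Six4, Six5 and Six6, Msx1 and Msx2, Emx1 and Emx2, En1 and En2, Pitx1 and Pitx3, Alx1 and Alx4, Barhl1, Barx1, Pou4f1, Pou4f2 and Pou4f3, Meis1 and Meis2, Pdx1, Prrx1 and Prrx2, Vax1 and Vax2, and Hlx. All 46 were found among the 53697 genes of the mesoderm count table, the 54393 genes of the endoderm table and the 26007 genes of the bulk embryoid body table. The single-cell table, with 15830 genes, held 37 of them and did not list Dlx1, Lhx3, Lhx4, Nkx2-2, Nkx3-2, Pitx3, Barhl1, Pou4f3 and Vax1.

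Homeobox genes encode transcription factors that bind DNA through the homeodomain, and these families pattern the forebrain, neural tube, limbs, face, eye, gut mesenchyme and kidney. In embryonic stem cells most of them are silent and carry H3K27me3, the histone mark deposited by Polycomb Repressive Complex 2 (PRC2). EED is a core subunit that PRC2 needs for its activity, while MTF2 and JARID2 are accessory proteins of alternative forms of the complex that help bring it to CpG islands.

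The study compared WT cells with cells lacking Mtf2, Jarid2 or Eed in 88 samples. In directed differentiation, WT, Mtf2 null and Jarid2 null cells were sequenced undifferentiated and after 5, 24 and 48 h on a mesoderm route (mid primitive streak medium with Activin A, BMP4, CHIR99021 and FGF2, then A-83-01 with BMP4) or an endoderm route (anterior primitive streak medium with Activin A, CHIR99021 and FGF2, then Activin A with DM3189), with 2 libraries for each genotype, time and route. Bulk RNA of embryoid bodies, aggregates that differentiate after withdrawal of LIF, was deposited as 1 sample per line at days 0, 2, 4 and 7 in lines with the labels Mtf2 null (WT line Pcl1-3 WT), Jarid2 null (WT line JM8) and Eed null (WT line J1). The sample titles read eb on all days, but the library names read mono, apparently for monolayer, at day 0 and eb on the later days. Day 0 is the undifferentiated state in the paper, so it counts as embryoid bodies here only as part of this series. Single live cells, sorted into plates as negative for 7-AAD, came from embryoid bodies of WT and the 3 null genotypes at days 0, 4, 7 and 10. The labels of the directed and single-cell samples, WT included, all carry the line name E14, while the methods name a matched WT line for each mutant. Each genotype was 1 line, so genotype and line cannot be told apart, and the authors describe the directed duplicates as technical, so the p-values measure only the spread between these libraries.

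Directed libraries held 9111880 to 16898264 reads and embryoid body samples, most of them sums of 2 deposited columns, 4071242 to 30457254 reads. Single-cell libraries held 202 to 347 cells with a median of 4997 to 10603 UMIs (counted molecules) per cell. The targeted gene followed the label in the directed Mtf2 null libraries (29.9 to 38.5 CPM, counts scaled to a common library total, against 203 to 509 CPM in WT) and in the single cells, where day 0 Mtf2, Jarid2 and Eed levels were 56.3, 146 and 11.5 UMI CPM in their own mutants against 793, 594 and 478 UMI CPM in WT. It did not in the directed libraries labelled Jarid2 null, where undifferentiated cells held 299 to 330 CPM of Jarid2 against 346 to 473 CPM in WT (log2 fold change -0.41, adjusted p = 0.00733, edgeR), and cells at 48 h of the mesoderm route 389 and 443 against 410 and 384 CPM. In bulk embryoid bodies none of the targeted genes passed the test: Eed at days 0, 2, 4 and 7 was 108, 207, 108 and 59.5 CPM under the label Eed null and 102, 244, 80.5 and 53.4 CPM in J1 (log2 difference 0.10, adjusted p = 0.804, limma). Jarid2 differed by -0.11 under its label (adjusted p = 0.802, limma). Mtf2 was below Pcl1-3 WT on all 4 days under its label, at 317, 238, 233 and 166 against 409, 433, 317 and 386 CPM (-0.75, adjusted p = 0.0857, limma). Directions in these libraries are those of the labels. The 6 pluripotency markers (Pou5f1, Nanog, Zfp42, Esrrb, Klf4 and Tdgf1) summed to 3136 to 3385 CPM in undifferentiated WT cells and to 1273 to 1496 CPM at 48 h, while the 4 endoderm markers (Sox17, Foxa2, Gsc and Cxcr4) summed to only 0.868 and 0.939 CPM in WT cells at 48 h of the endoderm route, so that route is named by its medium. Well positions recur between plates by design, and no cell name occurred more than once.

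The level of the set was low throughout. In the directed libraries 21 of the 46 genes stayed under 1 CPM everywhere, and 22 were tested in no directed fit because too few libraries held at least about 10 reads. The highest value of any of those 22 was 1.19 CPM. The fit of the mesoderm route tested 22 members, that of the endoderm route 19, that of the undifferentiated cells of both routes together 13, and that of the bulk embryoid bodies 28. At least 1 comparison called 21 members, and 14 were tested in no fit of any experiment. In a bulk library, fewer cells of a type and less RNA per cell cannot be told apart.

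Promoter windows from RefSeq (GRCm38.p6, 250 bases before to 50 bases after each start) were found for 35 of the 46 genes. Counted in 1 window per gene, they held a median of 18 CG dinucleotides against 7 over all 32841 windows, from 4 up to 57 in Pou4f1, and 32 of the 35 lay above the median of all windows. The trinucleotide GCG, searched on both strands, was in 35 of 35 windows (80.7% of all windows), the homeodomain core TAAT in 18 (51.4%, against 58.0% of all windows) and TATAAA in 2 (5.71%, against 13.6%). The sequences just before the starts of 4 members are shown because these genes changed in undifferentiated Mtf2 null cells, Meis1 and Nkx2-9 upward and Pou4f1 and Pou4f2 downward. All 4 lie on the minus strand, 5′ to 3′, at chr11:19018986-19019219 (Meis1, 234 bases), chr12:56613285-56613534 (Nkx2-9), chr14:104468000-104468249 (Pou4f1) and chr8:78436648-78436897 (Pou4f2), each of the last 3 with 250 bases, in no annotated exon. Capitals mark CG dinucleotides, the sites of DNA methylation.
Meis1: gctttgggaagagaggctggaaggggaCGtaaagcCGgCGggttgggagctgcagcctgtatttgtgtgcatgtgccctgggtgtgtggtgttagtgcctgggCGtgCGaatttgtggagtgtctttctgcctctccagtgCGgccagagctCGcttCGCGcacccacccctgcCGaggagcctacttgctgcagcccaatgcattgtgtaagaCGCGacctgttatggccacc
Nkx2-9: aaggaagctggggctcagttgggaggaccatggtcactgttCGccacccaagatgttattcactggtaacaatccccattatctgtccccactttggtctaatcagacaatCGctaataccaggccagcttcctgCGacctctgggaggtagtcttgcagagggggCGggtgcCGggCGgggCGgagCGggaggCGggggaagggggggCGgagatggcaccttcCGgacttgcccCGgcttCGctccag
Pou4f1: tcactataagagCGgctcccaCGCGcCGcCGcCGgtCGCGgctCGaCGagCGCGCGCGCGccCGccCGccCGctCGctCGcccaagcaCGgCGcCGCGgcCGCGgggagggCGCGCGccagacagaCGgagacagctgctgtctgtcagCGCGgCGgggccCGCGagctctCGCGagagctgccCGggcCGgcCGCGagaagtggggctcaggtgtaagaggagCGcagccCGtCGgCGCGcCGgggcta
Pou4f2: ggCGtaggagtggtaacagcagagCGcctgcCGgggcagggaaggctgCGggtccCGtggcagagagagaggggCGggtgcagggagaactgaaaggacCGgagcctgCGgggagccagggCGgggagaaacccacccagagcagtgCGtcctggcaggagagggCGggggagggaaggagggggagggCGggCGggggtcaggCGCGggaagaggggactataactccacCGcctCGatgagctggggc
These stretches hold 12, 13, 47 and 17 CG dinucleotides in that order. The higher genes, Meis1 and Nkx2-9, thus held fewer than the lower genes, Pou4f1 and Pou4f2, though Pou4f2 lay near them. In the whole windows Meis1 and Nkx2-9 held 15 each. Six5 (17), Pou4f2 (18), Prrx2 (28) and Pou4f1 (57), which were lower in undifferentiated Mtf2 null cells, held more. A link between CG count and direction was not tested in these few genes.

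In undifferentiated cells, loss of Mtf2 moved members in both directions. Of the 13 tested, 6 passed the threshold (adjusted p below 0.001 and an absolute log2 fold change above 1, edgeR quasi-likelihood test with Benjamini-Hochberg adjustment over all 16655 genes tested), 2 higher and 4 lower. The same rule called 14.7% of all genes, 8.11% higher and 6.57% lower. The median log2 fold change was -0.64 over the tested members and -0.04 over all genes. The values of the 4 libraries per genotype are given with the pair of the mesoderm series first.

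Nkx2-9, a relative of Nkx2-2 expressed next to the floor plate of the neural tube, was measured at 2.79, 3.02, 3.07 and 2.80 CPM in Mtf2 null cells and at 0.591, 0.261, 0.188 and 0.462 CPM in WT. The groups lay far apart, and the log2 fold change was 2.93 (SE 0.318, adjusted p = 1.69e-06, edgeR); Nkx2-9 passed the filter on low counts only through the Mtf2 null libraries, so it could enter the test only if it differed. Meis1, a cofactor of Hox proteins that is active in blood and limb progenitors, stood at 4.74, 4.68, 5.28 and 6.75 CPM in Mtf2 null cells against 0.984, 1.13, 1.79 and 0.646 CPM in WT. All 4 mutant libraries were above all 4 WT libraries (log2 fold change 2.22, SE 0.269, adjusted p = 5.31e-06). Meis1 overlaps an antisense gene (Gm16140) and a gene on its own strand (Gm37818), whose reads may be split between them.

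Pou4f1 and Pou4f2, POU-domain factors of sensory neurons and retinal ganglion cells, were lower. Pou4f1 was measured at 2.32, 1.66, 1.79 and 1.49 CPM in Mtf2 null cells and 9.94, 10.9, 12.1 and 8.96 CPM in WT. Its log2 fold change was -2.53 (SE 0.171, adjusted p = 1.01e-08), the smallest p among the members. Pou4f2 stood at 3.63, 3.54, 2.90 and 4.29 CPM against 12.3, 10.3, 15.2 and 9.88 CPM in WT, with no overlap (log2 fold change -1.74, SE 0.162, adjusted p = 3.41e-07).

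Prrx2, a factor of limb and facial mesenchyme, stood at 1.39, 2.29, 1.96 and 1.40 CPM in Mtf2 null cells against 6.99, 6.44, 5.17 and 5.63 CPM in WT (log2 fold change -1.79, SE 0.2, adjusted p = 2.33e-06). Six5, a Six-family factor, stood at 0.837, 1.56, 1.02 and 1.84 CPM against 4.82, 3.91, 3.86 and 3.69 CPM (log2 fold change -1.63, SE 0.273, adjusted p = 0.000122). In both genes every mutant library was below every WT library. All 6 calls were kept in each of the 8 fits that left out 1 library. With the libraries of 1 route alone, Six5 missed the threshold in both series (log2 fold changes -1.85 and -1.40), Nkx2-9 in the mesoderm series (2.78) and Prrx2 in the endoderm series (-1.68).

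Libraries labelled Jarid2 null shared these WT libraries, so the values stand side by side. They called 1 of the 13 members, where the rule called 1.15% of all genes (0.558% lower). That member was Pou4f2, with 3.64, 3.97, 4.67 and 4.50 CPM, all below WT and close to the Mtf2 null libraries (log2 fold change -1.53, SE 0.157, adjusted p = 1.29e-05). It missed the threshold when the mesoderm or the endoderm series was used alone (log2 fold changes -1.57 and -1.48). Pou4f1 stood at 9.01, 8.64, 8.76 and 6.60 CPM, Meis1 at 1.41, 1.30, 0.909 and 1.40 CPM and Prrx2 at 7.03, 7.34, 8.11 and 5.20 CPM, each with a range that overlapped WT. Nkx2-9, at 0.992, 0.777, 1.04 and 1.01 CPM, lay between WT and Mtf2 null and missed the threshold (log2 fold change 1.31, SE 0.353, adjusted p = 0.0162).

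**Figure D1:**
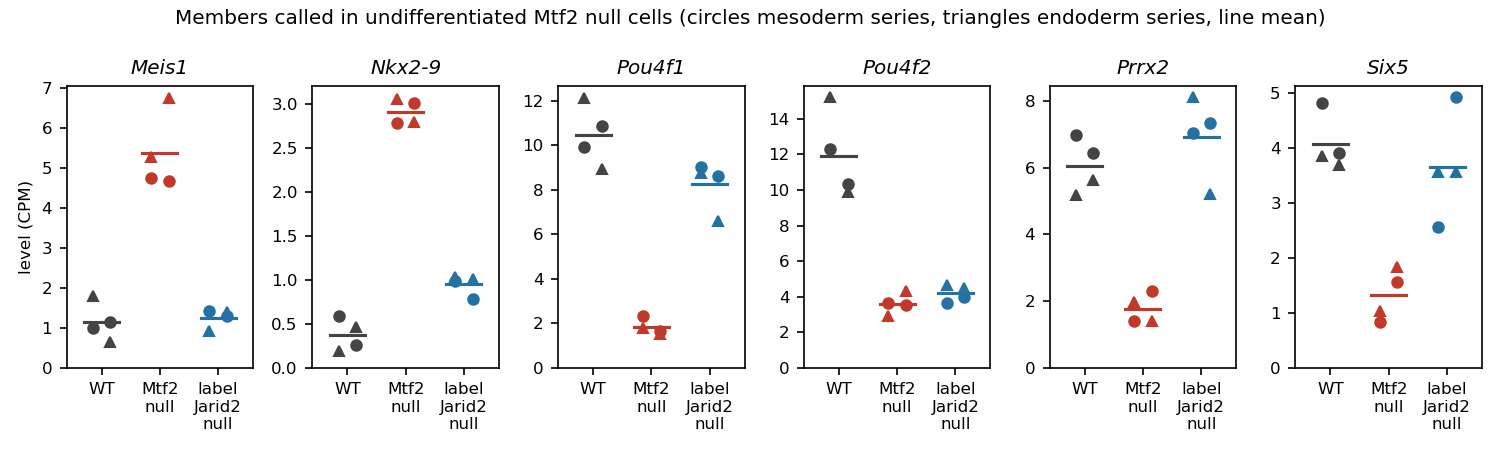
Level in CPM of the 6 members called in undifferentiated Mtf2 null cells, in each of the 4 libraries of WT, Mtf2 null and the label Jarid2 null (circles and triangles are libraries of the mesoderm and endoderm series, lines are means). Nkx2-9 and Meis1 are higher and Pou4f1, Pou4f2, Prrx2 and Six5 lower in Mtf2 null than in WT without overlap, and of these Pou4f2 is also lower in the libraries labelled Jarid2 null.

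Markers of other cell types moved with the Mtf2 null genotype. The summed level of the 5 extraembryonic endoderm markers (Sox7, Dab2, Amn, Ttr and Afp) was 62.1 to 71.1 CPM in undifferentiated Mtf2 null libraries against 9.31 to 12.8 CPM in WT, with 1 or 2 of the 5 at 0 in the Mtf2 null libraries and 2 of the 5 at 0 in each WT library. It reached 217 to 229 CPM at 48 h of the mesoderm route against 10.8 to 12.1 CPM in WT, and 317 to 373 CPM at 48 h of the endoderm route against 6.67 to 8.94 CPM, with none of the 5 at 0 in the Mtf2 null libraries. The 4 endoderm markers summed to 9.62 to 16.3 CPM in undifferentiated Mtf2 null cells against 1.22 to 2.36 CPM in WT, and to 48.6 to 56.7 CPM against 0.868 to 0.939 CPM at 48 h of the endoderm route. The 5 trophoblast markers (Cdx2, Gata3, Tfap2c, Elf5 and Krt7) summed to 56.7 to 59.6 CPM against 21.3 to 29 CPM in undifferentiated cells. At most 1 marker of either list was at 0 in any of these libraries. Other lists differed too in undifferentiated cells of the endoderm series. Germ cell markers (Dppa3, Ddx4, Dazl, Prdm1 and Nanos3) summed to 67.7 to 68.7 CPM in Mtf2 null against 35.5 to 38.2 CPM in WT. Mesoderm markers (T, Mixl1, Eomes, Mesp1, Tbx6, Hand1 and Tbx20) summed to 13.8 to 17.1 against 5.83 to 6.56 CPM. Fibroblast markers were lower, at 7.15 to 8.32 against 9.79 to 10.2 CPM. The part of these lists in the changes of the homeobox genes was not tested.

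The mesoderm route turned on a small group of members in WT cells. Between the undifferentiated state and 48 h, 10 of the 22 tested members passed the threshold, 7 higher and 3 lower, where the rule called 8.64% of all 18361 genes (5.57% higher, 3.08% lower). The median log2 change over the tested members was 0.79, and over all genes 0.00. Meis2, a Hox cofactor like Meis1, went from 0.394 and 0.435 CPM to 16.6 and 17.7 CPM (log2 fold change 5.35, SE 0.403, adjusted p = 3.92e-09). Msx2, a factor induced by BMP in limb buds and face, went from 0.689 and 1.22 CPM to 29.2 and 32.9 CPM (log2 fold change 5.01, SE 0.278, adjusted p = 7.62e-11). At 24 h Msx2 still stood at 0.978 and 1.02 CPM, so its rise fell between 24 and 48 h, whereas Meis1 passed through 3.02 and 2.33 CPM at 24 h on the way to 7.26 and 6.61 CPM (log2 fold change 2.71 at 48 h, SE 0.249, adjusted p = 6.03e-08).

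Msx1, the relative of Msx2, reached 2.51 and 4.35 CPM at 48 h from 0.689 and 0.174 CPM (log2 fold change 3.01, SE 0.62, adjusted p = 0.000714). Dlx5, a factor of bone and limb, was counted in 57 reads at 48 h against 1 read in the undifferentiated pair, a ratio of 44.8 (95% exact interval 7.72 to 1800, counting error only). Nkx2-9 (log2 fold change 2.88) and Six4, a factor of muscle and sensory placodes (1.17), completed the genes that rose, and Prrx2 (-2.43), Nkx6-2, a factor of the ventral neural tube (-1.79), and Pou4f2 (-1.54) fell. Meis1, Meis2, Msx2 and Six4 were kept in all 4 fits without 1 library. The call of Dlx5 was lost whichever of the 4 libraries was left out, those of Msx1 and Nkx6-2 in 3 of the 4 fits and those of Prrx2 and Pou4f2 in 2, and that of Nkx2-9 without WT undifferentiated replicate 2 (log2 fold change 2.38 to 3.56 over the 4 fits). The lowest and highest log2 values over those fits were 4.49 and 7.64 for Dlx5, 2.29 and 4.25 for Msx1, -2.99 and -1.07 for Nkx6-2, -3.18 and -1.88 for Prrx2, and -2.29 and -1.07 for Pou4f2. Nkx6-2 lies over Inpp5a on the opposite strand.

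In Mtf2 null cells the same route called 4 of the 22 members, 3 higher and 1 lower (6.28% of all genes, 3.95% higher and 2.33% lower). Msx2 (log2 fold change 3.66), Meis2 (2.69) and Lhx6, a LIM factor of cortical interneurons (1.77), rose and Nkx6-2 fell by 2.60 on the log2 scale. The call of Lhx6 was lost in 3 of the 4 fits without 1 library (log2 fold changes of 1.42 to 2.07), that of Meis2 without Mtf2 null undifferentiated replicate 2 (2.49 to 2.89 over the fits) and that of Nkx6-2 without Mtf2 null 48 h replicate 2 (-2.90 to -2.32). Cells labelled Jarid2 null called 5, 4 higher and 1 lower (8.5% of all genes, 4.89% higher and 3.61% lower): Msx2 (4.43), Meis2 (4.43), Msx1 (2.68) and Meis1 (2.49) rose, and En2, a midbrain and hindbrain factor, fell by 1.72 on the log2 scale. The En2 call was lost whichever library was left out (-2.20 to -1.37), and the Msx1 call in 3 of the 4 fits (2.02 to 3.15).

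At 48 h of the mesoderm route, 3 of the 22 members were called in Mtf2 null against WT, all lower, where the rule called 6.82% of all genes (3.06% lower). Meis2 stood at 4.95 and 5.78 CPM in Mtf2 null against 16.6 and 17.7 CPM in WT (log2 fold change -1.65, SE 0.28, adjusted p = 0.000141). Msx2 stood at 13.3 and 10.3 CPM against 29.2 and 32.9 CPM (log2 fold change -1.38, SE 0.202, adjusted p = 2.91e-05). Both levels were lower in the mutant, but the change of the Mtf2 effect since the undifferentiated state did not pass the test for either gene (adjusted p = 0.00725 for Meis2 and 0.0535 for Msx2, edgeR). Pou4f1 was lower at 3.51 and 2.74 CPM against 10.2 and 10.2 CPM (log2 fold change -1.70, SE 0.173, adjusted p = 2.53e-07). The Meis2 call was lost whichever of the 4 libraries was left out (adjusted p from 0.00106 to 0.00522), and the Msx2 call without Mtf2 null 48 h replicate 2 (adjusted p up to 0.00217). Pou4f1 was kept in all 4.

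Among members that did not pass there, Msx1 stood at 0.990 and 1.33 CPM in Mtf2 null against 2.51 and 4.35 CPM in WT (log2 fold change -1.53, SE 0.523, adjusted p = 0.0345). Dlx3, a factor of epidermis and placenta, stood at 5.85 and 3.75 CPM against 2.44 and 5.80 CPM, with overlapping groups. The summed level of all members other than Six4, whose reads outnumber those of any other member, was 49.6 to 61.8 CPM in Mtf2 null, 91.1 to 104 CPM in WT and 81.2 to 99.4 CPM under the label Jarid2 null. The 7 mesoderm markers (T, Mixl1, Eomes, Mesp1, Tbx6, Hand1 and Tbx20) summed to 31.3 to 32.2 CPM in Mtf2 null and 20.6 to 24.5 CPM in WT in the same libraries.

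On the endoderm route the changes of Meis2 (log2 fold change 1.44, adjusted p = 0.00268, edgeR), Meis1 (0.93), Msx1 (0.93) and Msx2 (-2.25) in WT did not pass the threshold, and Dlx5 was not tested. In WT 5 of the 19 tested members changed by 48 h, 2 higher and 3 lower, where the rule called 8.15% of all 19261 genes (5.16% higher, 3.0% lower). Nkx2-9 (log2 fold change 2.27) and Six4 (1.40) rose, and Pou4f2 (-2.81), Nkx6-2 (-2.27) and Prrx2 (-2.02) fell. The Nkx2-9 call was lost whichever library was left out (1.78 to 3.04) and the Prrx2 call in 3 of the 4 fits (-3.04 to -1.44). Mtf2 null cells called 3 (8.93% of all genes, 5.97% higher and 2.96% lower), Meis2 (2.19), Lhx6 (1.89) and Nkx6-2 (-2.69), of which Lhx6 was lost whichever library was left out (1.69 to 2.06) and Meis2 without Mtf2 null undifferentiated replicate 2 (1.80 to 2.74 over the fits). Cells labelled Jarid2 null called 4 (8.5% of all genes, 4.9% higher and 3.6% lower): Six4 rose (1.17), and Prrx2 (-2.62), Nkx6-2 (-1.17) and Msx2 fell. Msx2 went from 32 reads in the undifferentiated pair to 1 read at 48 h there, a ratio of 34.1 (95% exact interval 5.70 to 1390). The Msx2 call was lost without Jarid2 null 48 h replicate 1 (-6.87 to -3.94 over the fits), and the Nkx6-2 call without replicate 1 of either time (-1.54 to -0.90).

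At 48 h of the endoderm route 3 of 19 members were called in Mtf2 null against WT, 2 higher and 1 lower (10.5% of all genes, 6.37% higher and 4.17% lower). Msx2 stood at 2.97 and 3.20 CPM in Mtf2 null and at 0.261 and 0.0939 CPM in WT, which is 86 against 4 reads and a ratio of 17.1 (95% exact interval 6.45 to 64.2). The fitted log2 fold change was 4.04 (SE 0.544, adjusted p = 4.69e-06), so Msx2 was higher in Mtf2 null on this route and lower on the mesoderm route. Lhx6 stood at 5.13 and 3.96 CPM against 0.434 and 0.939 CPM (log2 fold change 2.73, SE 0.432, adjusted p = 3.29e-05), the highest level of this gene in any directed library. Lhx6 missed the threshold without WT 48 h replicate 1 (log2 fold change 2.26, adjusted p = 0.00223). Pou4f1 was again lower, at 2.97 and 3.33 CPM against 12.3 and 11.4 CPM (log2 fold change -1.90, SE 0.19, adjusted p = 7.02e-08).

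The earlier times on both routes repeated a pair of genes. Pou4f1 was lower in Mtf2 null at 5 h (log2 fold change -1.73 on the mesoderm and -1.65 on the endoderm route) and at 24 h (-1.90 and -2.05), and each of these calls held in all 4 fits without 1 library. Six5 was lower at 5 h (-2.79 and -2.41) and at 24 h (-2.17 and -2.06), with 0.269 and 0.359 CPM against 2.02 and 2.57 CPM in WT at 5 h of the mesoderm route. At 24 h the Six5 call was lost whichever library was left out on either route, and at 5 h in 3 of the 4 fits of the mesoderm and 2 of the 4 of the endoderm route. Its log2 fold changes over those fits ran from -3.002 to -1.92 on the mesoderm and from -2.69 to -1.93 on the endoderm route. Those 2 genes were the calls at 5 h of the mesoderm route (2 of 22, against 7.56% of all genes and 4.11% lower), at 24 h of the mesoderm route (2 of 22, against 5.72% and 2.94% lower) and at 5 h of the endoderm route (2 of 19, against 7.61% and 4.03% lower).

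At 24 h of the endoderm route (3 of 19, against 6.58% of all genes, 3.57% higher and 3.01% lower) Barx1, a factor of stomach and facial mesenchyme, was also called. Barx1 stood at 1.81 and 1.30 CPM against 0.0728 and 0.0641 CPM, which is 37 against 2 reads and a ratio of 22.5 (95% exact interval 5.80 to 193), and the call was lost whichever library was left out (adjusted p from 0.00141 to 0.011, edgeR). Six4 reached 126 and 127 CPM in Mtf2 null at 5 h of the mesoderm route against 69.2 and 65.3 CPM in WT, without overlap, and its log2 fold change of 0.92 (SE 0.119, adjusted p = 6.04e-06) stayed under the limit of 1. On the endoderm route the 5 h values were 141 and 148 against 80.3 and 84.6 CPM (log2 fold change 0.83).

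**Figure D2:**
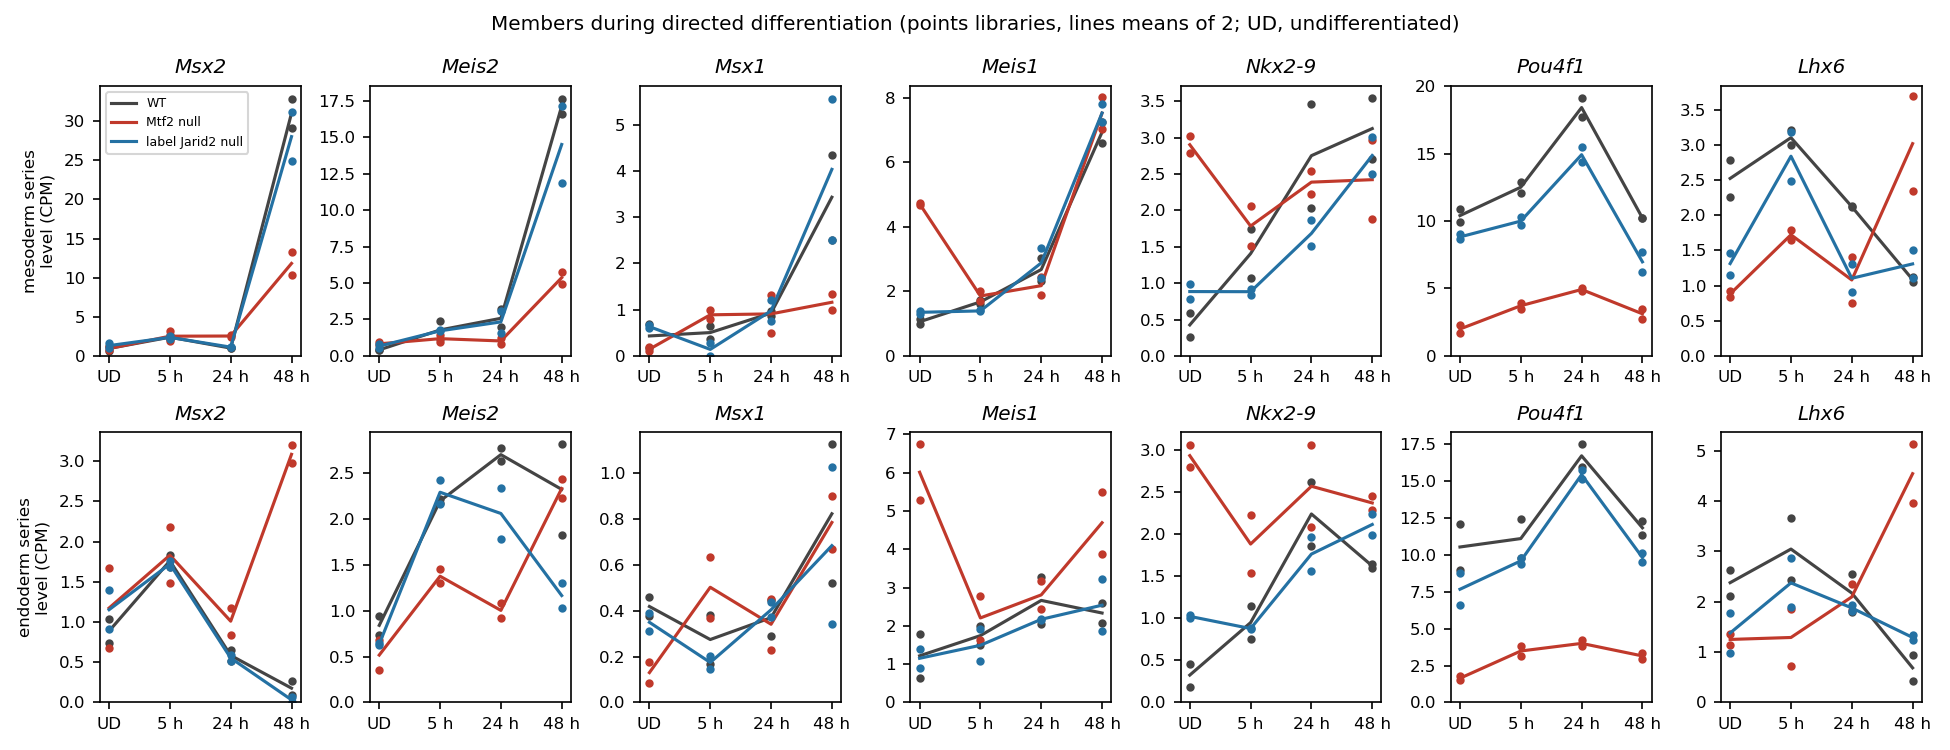
Level in CPM of 7 members over time (undifferentiated, 5, 24 and 48 h) in the mesoderm series (upper row) and the endoderm series (lower row), with a point per library and a line through the mean of each pair, by genotype. Msx2 and Meis2 rise on the mesoderm route, Msx2 to 29.2 and 32.9 CPM in WT and to 13.3 and 10.3 CPM in Mtf2 null, while Pou4f1 stays lower in Mtf2 null at every time.

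Libraries labelled Jarid2 null called no member against WT at any differentiated time (edgeR, 0 of 22 or 19). DESeq2 also called none in these 6 comparisons. At 5, 24 and 48 h of the mesoderm route the members with an unadjusted p under 0.05 numbered 1, 7 and 2, and the rule called 0.0%, 1.97% and 0.169% of all genes. On the endoderm route they numbered 0, 2 and 2, with 0.0363%, 0.0312% and 0.125% of all genes called. Jarid2 itself was called at none of these times, and Meis2 at 48 h of the mesoderm route (11.9 and 17.1 CPM) and Msx2 (24.9 and 31.2 CPM) lay near or within the WT values of 16.6 and 17.7 and of 29.2 and 32.9 CPM.

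Whether the Mtf2 effect at 48 h differed from that in undifferentiated cells was tested with an interaction term. On the mesoderm route 3 of 22 members passed (2.71% of all genes, 1.05% higher and 1.66% lower). The effect fell for Nkx2-9 by 3.13 and for Meis1 by 2.03 on the log2 scale and rose by 2.96 for Lhx6. For Meis1 this describes WT cells reaching 7.26 and 6.61 CPM at 48 h, beside 8.01 and 7.03 CPM in Mtf2 null. On the endoderm route 2 of 19 passed (5.24% of all genes, 2.68% higher), Lhx6 (3.69) and Pou4f2 (2.29). The same terms for the label Jarid2 null called no member by edgeR or DESeq2, with 4 of 22 and 3 of 19 members at an unadjusted p under 0.05 and 0.0545% and 0.514% of all genes called.

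In bulk embryoid bodies most of the called members were higher under the null labels. Each line gave 1 sample at each of 4 days. For 21 of the 24 samples it was the sum of 2 deposited columns, most of them named r1 and r2 with library numbers of their own. The authors describe the duplicates of bulk RNA sequencing as technical. The 4 days therefore served as blocks, and a call needed an adjusted p below 0.05 (limma on log2 CPM with a prior count of 2, Benjamini-Hochberg over 15837 genes). The label Mtf2 null called 5 of the 28 tested members, 4 higher and 1 lower (18.4% of all genes, 9.86% higher and 8.51% lower). The label Jarid2 null called 4, all higher (14.8% of all genes, 7.07% higher), and the label Eed null 9, all higher (10.9% of all genes, 5.52% higher). The median log2 difference of the tested members was 1.29, 0.80 and 1.20 for these labels, against 0.03, 0.01 and -0.00 over all genes. Differences of low genes are understated on this scale.

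Meis1 was called under the labels Mtf2 null and Eed null, and Meis2 under the labels Jarid2 null and Eed null. At days 0, 2, 4 and 7 Meis1 stood at 2.22, 3.21, 13.7 and 55.9 CPM under the label Mtf2 null and at 0.809, 0.992, 0.641 and 4.14 CPM in Pcl1-3 WT (log2 difference 2.61, SE 0.51, adjusted p = 0.00161, limma), higher on all 4 days. Under the label Eed null Meis1 was 9.48, 4.38, 19.0 and 89.8 CPM against 1.88, 1.15, 3.76 and 63.8 CPM in J1 (1.69, SE 0.51, adjusted p = 0.0397), again higher on all 4 days. Under the label Jarid2 null it was 6.01, 2.47, 4.33 and 34.8 CPM against 1.75, 1.34, 1.44 and 49 CPM in JM8, higher on 3 days, and was not called. Meis2 stood at 9.07, 17.1, 31.1 and 93.3 CPM under the label Eed null against 0.514, 1.34, 13.4 and 74.9 CPM in J1 (2.18, SE 0.635, adjusted p = 0.0334). Under the label Jarid2 null it stood at 2.28, 1.86, 37.5 and 99.5 CPM against 0.304, 0.708, 3.17 and 56.2 CPM in JM8 (1.93, SE 0.635, adjusted p = 0.0464). Both Meis2 calls had the mutant above its WT line on every day, with the gap smallest as a fold at day 7 in the pair with J1.

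Vax2, a factor of the ventral retina, was called under all 3 labels. Under the label Eed null it stood at 8.07, 3.94, 2.66 and 7.48 CPM against 1.20, 0.767, 0.104 and 0.103 CPM in J1 (log2 difference 3.15, SE 0.542, adjusted p = 0.00171). It was 1.11, 1.28, 3.14 and 4.74 CPM under the label Mtf2 null against 0.809, 0.372, 0.321 and 1.06 CPM (1.59, SE 0.542, adjusted p = 0.0467). Under the label Jarid2 null it was 2.28, 1.59, 0.382 and 0.972 CPM against 0.152, 0.157, 0.144 and 0.435 CPM (1.69, SE 0.542, adjusted p = 0.0408). The mutant was above its WT line on every day in each pair.

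Barx1 showed the largest difference under the label Eed null, with 14.9, 2.63, 11.0 and 13.3 CPM against 1.03, 0.0959, 0.522 and 0 CPM in J1 (log2 difference 4.25, SE 0.847, adjusted p = 0.00427). Dlx2, a factor of forebrain interneurons and the jaw, stood at 3.83, 0.526, 1.57 and 7.59 CPM against 0, 0, 0.418 and 0.619 CPM (2.78, SE 0.597, adjusted p = 0.00674), but it passed the filter only through the libraries where it was high. En2 stood at 7.26, 16.9, 6.00 and 1.30 CPM against 1.88, 6.52, 0.209 and 0.206 CPM in J1 (2.25, SE 0.646, adjusted p = 0.0315). Unlike Meis1, En2 was highest at day 2 in both lines. Alx1 (log2 difference 2.17), a factor of facial mesenchyme, Nkx2-3 (2.33), a factor of gut mesenchyme and spleen, and Nkx6-1 (1.79), a factor of ventral neural tube and pancreas, completed the 9 calls, and each was above J1 on every day.

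Under the label Mtf2 null, Six5 stood at 4.03, 2.27, 6.92 and 10.6 CPM against 2.16, 0.868, 2.40 and 2.97 CPM in Pcl1-3 WT (log2 difference 1.30, SE 0.308, adjusted p = 0.00645), the opposite side of WT from undifferentiated directed Mtf2 null cells. Pou4f2 (log2 difference 1.83), Prrx2 (1.21) and Pou4f1 (0.17), also lower in those directed cells, were likewise not below Pcl1-3 WT over the days. None of them was called under this label (adjusted p = 0.108, 0.0886 and 0.823, limma). Six4 was the call in the lower direction, with 57.4, 59.6, 63 and 47.5 CPM against 118, 96.4, 136 and 133 CPM (-1.11, SE 0.31, adjusted p = 0.0173). Alx4, like Alx1 a factor of facial mesenchyme, stood at 0.139, 0.128, 1.89 and 8.22 CPM against 0, 0.124, 0 and 0.424 CPM (1.99, SE 0.633, adjusted p = 0.034). Under the label Jarid2 null, Six5 was also higher (1.40, SE 0.308, adjusted p = 0.00464), as was Pou4f1, with 5.87, 8.31, 2.04 and 1.86 CPM against 3.42, 1.97, 0.719 and 0.543 CPM in JM8 (1.35, SE 0.441, adjusted p = 0.0451).

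**Figure D3:**
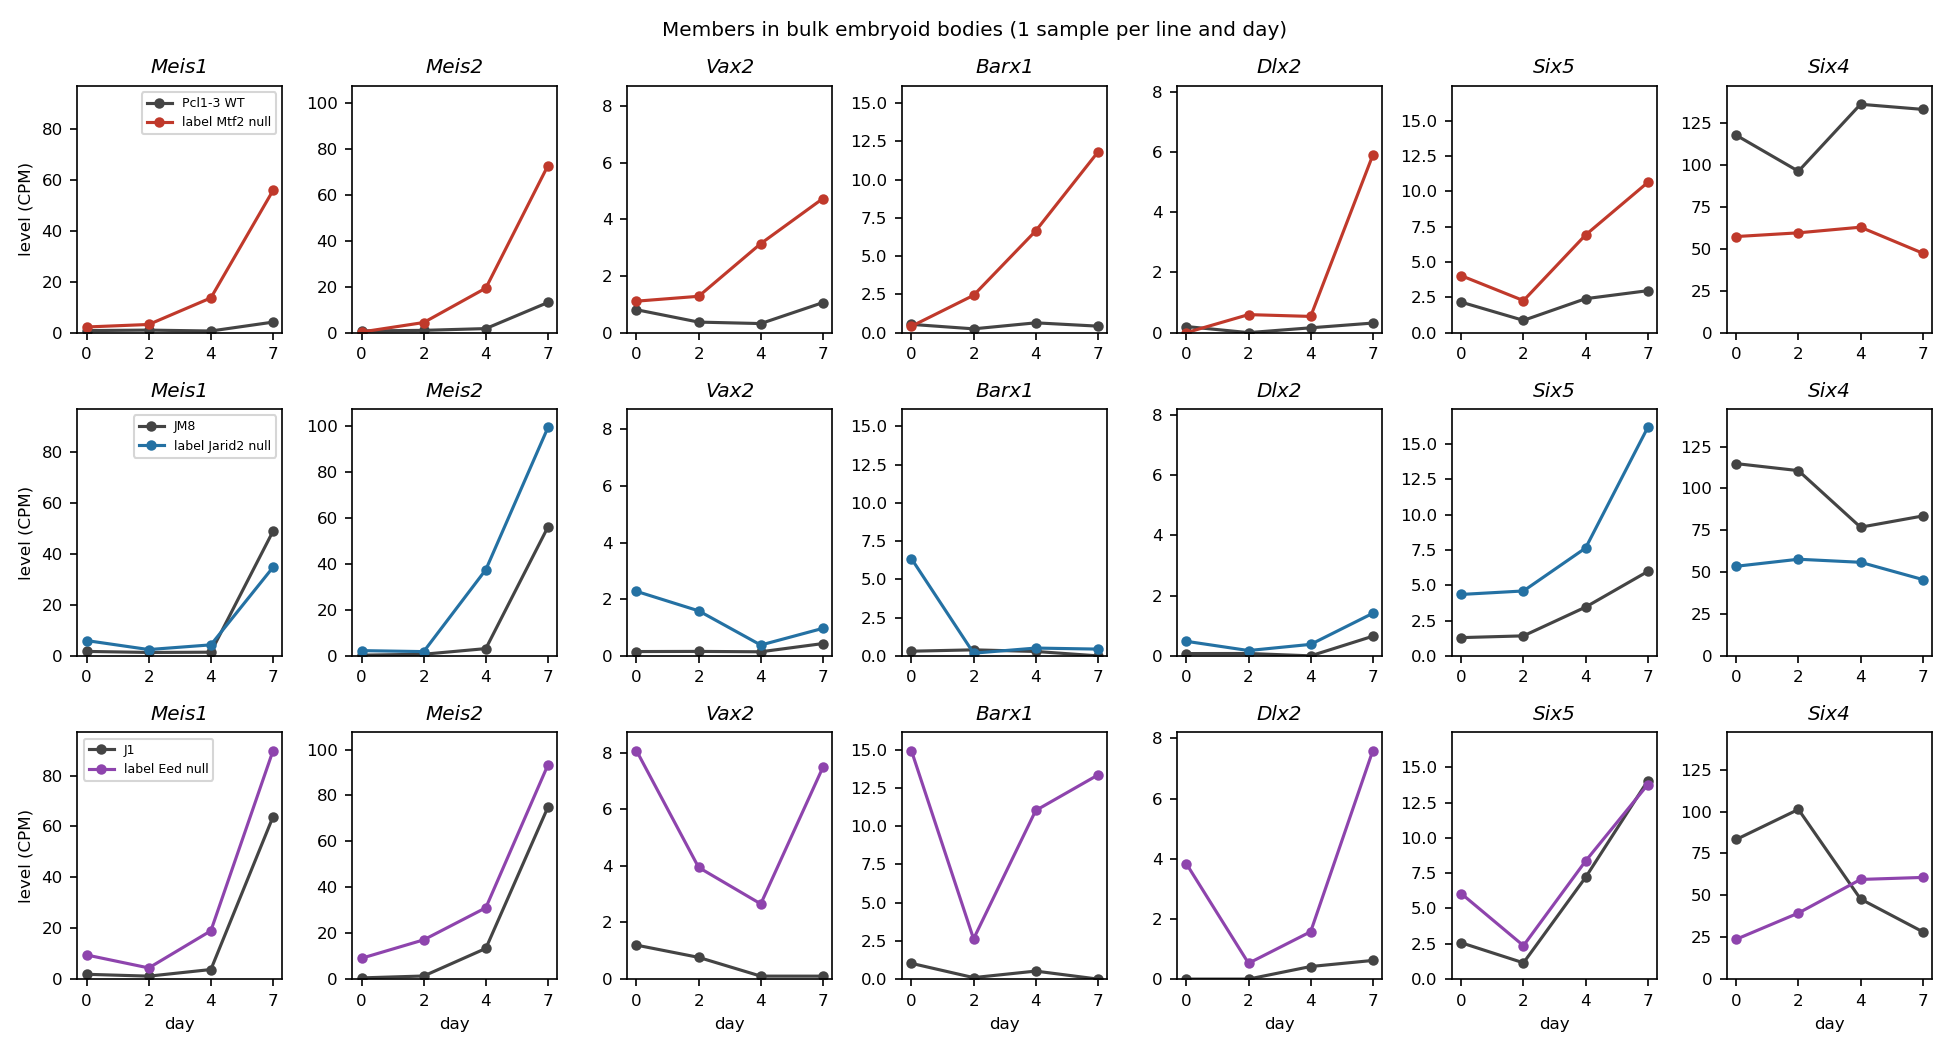
Level in CPM of 7 members (columns) in the bulk embryoid body series at days 0, 2, 4 and 7, with the libraries of day 0 named mono. Each row is 1 null label and its WT line. Each point is 1 sample, for 21 of the 24 samples the sum of 2 deposited columns. Meis1 reaches 34.8 CPM or more at day 7 in 5 of the 6 lines and 4.14 CPM in Pcl1-3 WT, and Vax2 and Barx1 are higher under the label Eed null than in J1 on every day.

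Many of these calls were lost when a day was left out. Without day 0 the label Mtf2 null called 12 members (11 higher), among them Dlx2, En2, Pitx1, Barx1, Meis2, Prrx1 and Hlx, the label Jarid2 null 1 and the label Eed null 6. Without day 4 the counts were 1, 0 and 2, and without the day block 1, 0 and 2. Meis1 under the label Mtf2 null and Vax2 under the label Eed null were kept whichever day was left out. Dlx2 could enter such a fit only through the libraries labelled Eed null where it was high. Its calls in the 3 fits that tested it therefore add no support. edgeR on the recovered reads called 11, 4 and 6 members.

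Of the other calls under the label Mtf2 null, Six5 and Six4 were lost without day 4 or day 7, Alx4 without day 4, and Vax2 without day 2, 4 or 7. Their log2 differences over those fits were 1.16 to 1.43 for Six5, -1.24 to -0.96 for Six4, 1.54 to 2.59 for Alx4 and 1.24 to 1.98 for Vax2. Under the label Jarid2 null, Meis2, Pou4f1 and Vax2 were lost whichever day was left out, and Six5 without day 4, with differences of 1.42 to 2.34 for Meis2, 1.14 to 1.59 for Pou4f1, 1.35 to 2.03 for Vax2 and 1.35 to 1.505 for Six5. Under the label Eed null, Barx1 was lost without day 4 (adjusted p = 0.0578, limma), Nkx2-3 without day 2 or 4, Alx1 and En2 without day 2, 4 or 7, Meis1 and Meis2 without day 0, 2 or 4, and Nkx6-1 in both fits that still tested it. Those differences ran from 3.67 to 4.53 for Barx1, 1.89 to 2.56 for Nkx2-3, 1.65 to 2.502 for Alx1, 1.70 to 2.54 for En2, 1.49 to 2.12 for Meis1, 1.65 to 2.83 for Meis2 and 1.57 to 1.97 for Nkx6-1.

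Several members with many reads at day 7 were mesenchymal factors, and their levels differed widely between the WT lines. Prrx1, a factor of limb mesenchyme, stood at day 7 at 0.318 CPM in Pcl1-3 WT, 19.7 CPM in JM8 and 6.30 CPM in J1, beside 24.5 CPM under the label Mtf2 null, 21.3 CPM under Jarid2 null and 52.5 CPM under Eed null. Pitx1, a factor of the hindlimb and pituitary, stood at 0.742, 15.8 and 66.2 CPM in those WT lines and at 19.4, 59.9 and 31.1 CPM under the labels in that order. Msx2 stood at 8.17, 23.0 and 31 CPM and at 35.2, 32.3 and 49.1 CPM, and in J1 it had been higher at day 4 (96.0 CPM). Prrx2 stood at 5.41, 13.6 and 16.2 CPM and at 10.2, 10.4 and 30.6 CPM at day 7. None of these 4 genes was called with all days in the fit. Msx1 at day 4 was 56.4 CPM in J1 and 64.4 CPM under the label Jarid2 null, where the 7 mesoderm markers summed to 871 and 866 CPM and to at most 122 CPM in the other lines.

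The member sum without Six4 at day 7 was 69.8 CPM in Pcl1-3 WT, 255 CPM in JM8 and 378 CPM in J1, beside 337 CPM under the label Mtf2 null, 383 CPM under Jarid2 null and 519 CPM under Eed null. Marker lists differed between the lines as well. The 8 fibroblast markers (Col1a1, Col1a2, Col3a1, Postn, Dcn, Lum, Thy1 and Fbln2) summed at day 7 to 109, 474 and 5998 CPM in Pcl1-3 WT, JM8 and J1 and to 436, 1668 and 966 CPM under the labels in that order. The 5 extraembryonic endoderm markers summed to 25.6, 72.9 and 657 CPM and to 1854, 1164 and 806 CPM. No marker of either list was at 0 at day 7, and the part of these lists in the calls was not tested. At day 0 the member sum was 131 CPM under the label Eed null against 33.6 CPM in J1, 88.2 CPM under the label Jarid2 null against 27 CPM in JM8, and 40.4 CPM under the label Mtf2 null against 27 CPM in Pcl1-3 WT. The 7 mesoderm markers summed at day 0 to 152 against 11.1 CPM (labels Eed null and its WT line), 79.1 against 17.6 CPM (Jarid2 null) and 13.6 against 15.8 CPM (Mtf2 null), and the 8 fibroblast markers to 103 against 30.8, 83.4 against 22.4 and 15.8 against 21.2 CPM. Between 0 and 2 of the mesoderm markers and 1 to 5 of the fibroblast markers were at 0, and their part was not tested.

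Single cells gave 1 library per genotype and day, so their values carry exact Poisson intervals at 95% for counting error only and no test. Over all 4949 cells the members with the most UMIs were Msx2 (2499), Six4 (2241), Meis2 (1868), Msx1 (1714), Prrx1 (1003), Prrx2 (732), Meis1 (585), Pitx1 (506), Pou4f2 (389) and En2 (351). The sum over the 37 members at day 0 was 177 UMI CPM (UMIs scaled to the library's total as in CPM, interval 162 to 193) in WT, 150 in Mtf2 null, 147 in Jarid2 null and 212 UMI CPM (197 to 228) in Eed null. At day 10 it was 666, 624.1, 622 and 1869 UMI CPM (1797 to 1944 in Eed null). At day 7 it was 672, 570, 279 and 666 UMI CPM, so the Jarid2 null library was the low one there.

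At day 0, the state closest to the undifferentiated bulk cells, the 4 genes lower in directed Mtf2 null cells had fewer UMIs in single Mtf2 null cells as well. Over the days of the bulk embryoid bodies, none of these genes was lower under the label Mtf2 null than in Pcl1-3 WT. In the single cells at day 0, Pou4f2 stood at 51.2 UMI CPM (43.4 to 60) in WT, 18.8 (14.7 to 23.6) in Mtf2 null, 13.1 (9.43 to 17.7) in Jarid2 null and 12.7 UMI CPM (9.16 to 17.1) in Eed null, so all 3 mutants lay under WT without overlapping intervals. Pou4f1 stood at 6.69 UMI CPM (4.09 to 10.3) in WT and 1.29 UMI CPM (0.417 to 3.00) in Mtf2 null. Prrx2 had 25 UMIs or 8.36 UMI CPM (5.41 to 12.3) in WT and 0 UMIs in Mtf2 null. In that Mtf2 null library 3 UMIs would be 0.771 UMI CPM, which is not the upper end of an exact interval. Six5 stood at 6.02 (3.57 to 9.52) and 2.06 UMI CPM (0.888 to 4.05), with overlapping intervals. Nkx2-9 had 1 UMI in WT, 11 in Mtf2 null, 3 in Jarid2 null and 21 in Eed null, and Meis1 3, 7, 6 and 16, so a difference of Meis1 between Mtf2 null and WT was not detectable at this depth.

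At day 0 Eed null cells had the highest levels of En2, Meis2 and Barx1. En2 stood at 38.3 UMI CPM (32 to 45.5) against 4.35 (2.32 to 7.44) in WT, 6.17 in Mtf2 null and 13.1 in Jarid2 null. Meis2 stood at 22.1 UMI CPM (17.4 to 27.7) in Eed null and 3.68 UMI CPM (1.84 to 6.58) in WT. Barx1 stood at 15.0 UMI CPM (11.2 to 19.7) in Eed null, at 2.57 UMI CPM (1.23 to 4.73) in Mtf2 null and at 0 in WT and Jarid2 null. Vax2 was above WT in both Jarid2 null (13.4 UMI CPM, 9.69 to 18.0) and Eed null (9.72 UMI CPM, 6.69 to 13.7) beside 2.68 UMI CPM (1.16 to 5.27) in WT. Six4 went the other way, at 33.6 UMI CPM (27.7 to 40.3) in Eed null against 69.2 UMI CPM (60.1 to 79.3) in WT. At day 4 Msx2 was the gene that stood out in Eed null, at 63.4 UMI CPM (53.4 to 74.6) against 7.94 UMI CPM (4.62 to 12.7) in WT.

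At day 7 Jarid2 null cells held less of the Msx and limb factors. Msx1 stood at 160 (143 to 177), 104 (91.4 to 118), 24.1 (17.7 to 32.2) and 64.1 UMI CPM (54.3 to 75.2), in the order WT, Mtf2, Jarid2 and Eed. Msx2 stood at 186, 214, 50.9 and 105 UMI CPM in the same order. Pitx1 had 44, 33, 0 and 26 UMIs. Six2, a factor of kidney progenitors, stood at 33 UMI CPM (25.7 to 41.6) in WT and 5.25 UMI CPM (2.52 to 9.65) in Jarid2 null. The mesoderm markers followed the same order in part, with 905, 713, 261 and 193 UMI CPM for the summed list, and their part in the difference was not tested.

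At day 10 the Eed null library had the highest level of Meis1, Meis2, Prrx1, Prrx2, Alx1, Alx4, Msx1, Msx2 and Pitx1. Meis2 reached 378 UMI CPM (345 to 412) there against 121 (103 to 141) in WT, 82.9 in Mtf2 null and 130 in Jarid2 null. Prrx1 reached 243 UMI CPM (217 to 270) against 32.2 (23.5 to 43.1) in WT. Meis1 stood at 169 (148 to 193) against 27.9 UMI CPM (19.8 to 38.1), Prrx2 at 133 against 22.2 UMI CPM and Alx1 at 41.8 (31.6 to 54.3) against 0.715 UMI CPM. Msx1 stood at 255 (228 to 283) against 157 (137 to 180), Msx2 at 202 (179 to 228) against 144 (125 to 165), Pitx1 at 131 (113 to 152) against 50.1 (39 to 63.3) and Alx4 at 29.9 (21.3 to 40.7) against 5.72 UMI CPM (2.47 to 11.3). The summed fibroblast list at day 10 was 1829 UMI CPM in Eed null and 1690 UMI CPM in WT, beside 435 in Mtf2 null and 304 in Jarid2 null, and its part in the differences was not tested. Nkx6-1, Six6 and Lhx5, named after their values were seen, had most of their day 10 UMIs in Mtf2 null cells. Nkx6-1 stood at 23.6 UMI CPM (17.6 to 31) there, with 1 UMI in WT, 3 in Jarid2 null and 10 in Eed null. Six6, a factor of eye and pituitary, stood at 19.0 UMI CPM (13.6 to 25.8), with 0, 7 and 0 UMIs in WT, Jarid2 null and Eed null, and Lhx5, a forebrain factor, at 11.6 UMI CPM (7.49 to 17.1), with 0, 2 and 3 UMIs. The neural ectoderm list summed to 86.6 UMI CPM in Mtf2 null, 65.7 in Jarid2 null, 28.4 in Eed null and 10.0 UMI CPM in WT at that day.

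**Figure D4:**
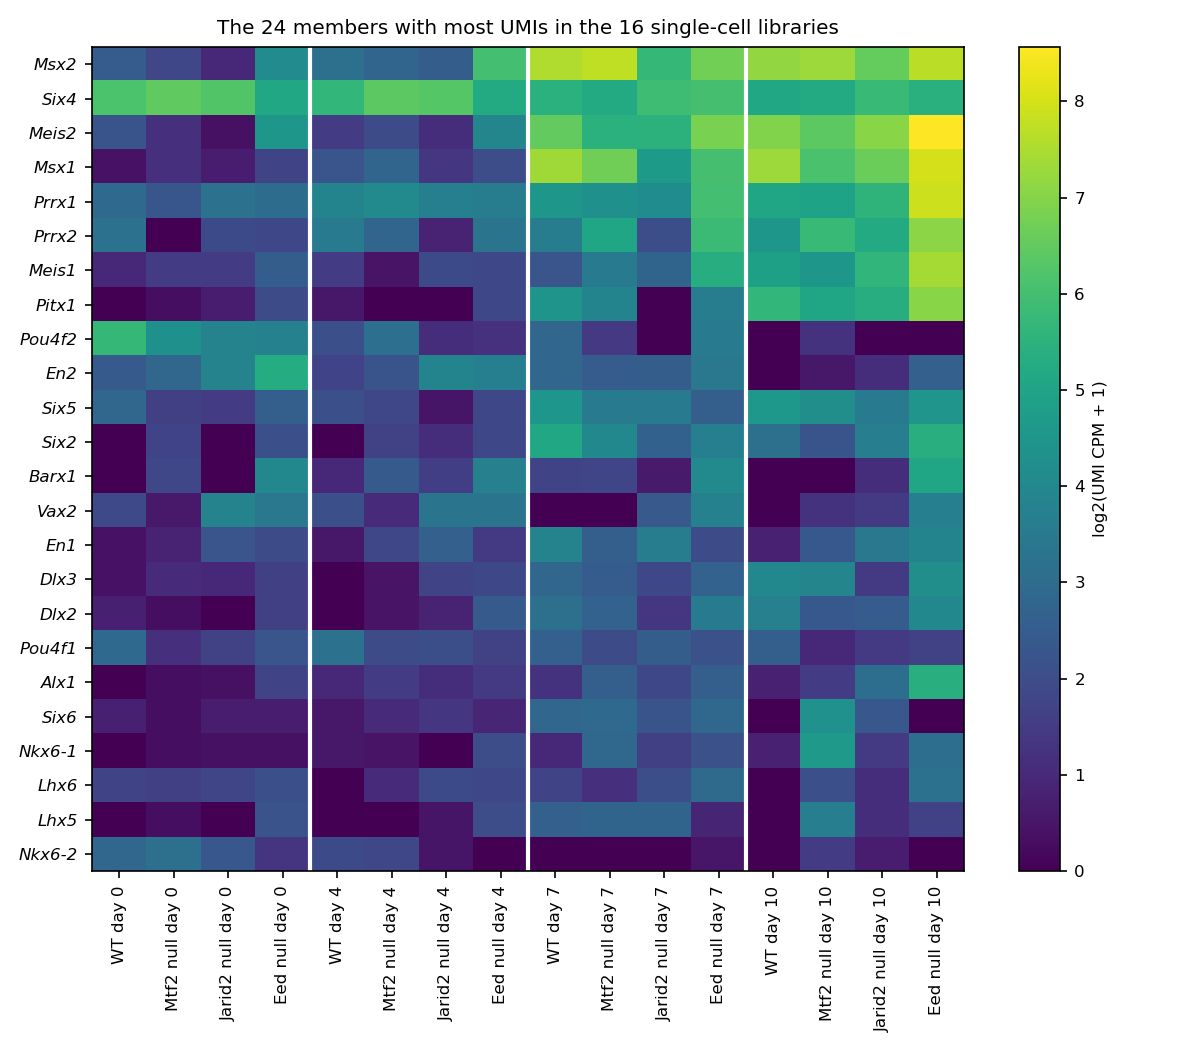
Heat map of the 24 members with the most UMIs (rows) in the 16 single-cell libraries (columns, by day and then genotype), coloured by log2(UMI CPM + 1). Pou4f2 is brightest at day 0 in WT (51.2 UMI CPM), and Meis1, Meis2 and Prrx1 are brightest at day 10 in Eed null (169, 378 and 243 UMI CPM).

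The members were spread unevenly over the 22 clusters that the authors assigned, which were made from the same cells, so the levels are a description. Cluster 13 (226 cells, 197 of them Eed null) held 1910 UMI CPM of members, led by Meis2 (422), Prrx1 (262), Msx1 (251) and Meis1 (177 UMI CPM). Cluster 4 (324 cells, 159 Mtf2 null, 122 WT, 40 Jarid2 null and 3 Eed null) held 1285 UMI CPM, led by Msx2 (381), Msx1 (279), Meis2 (171) and Pitx1 (113 UMI CPM). Both held a high sum of fibroblast markers (1943 and 1672 UMI CPM). Cluster 15 (136 cells), with the highest neural ectoderm sum (326 UMI CPM), held Lhx5 (63.3), Six6 (57.6) and Emx2 (48.4 UMI CPM), a factor of cortex and kidney. These were not its leading members. Meis2 stood there at 93.1 UMI CPM in Mtf2 null and 275 UMI CPM in Jarid2 null cells. Msx2 stood at 126 and 133 UMI CPM in the same order. Cluster 14 (190 cells), with the highest mesoderm sum (1913 UMI CPM), held Msx2 (233), Msx1 (211) and Six2 (66.5 UMI CPM). It also held Meis2, at 99.1 UMI CPM in WT, 54.4 in Mtf2 null and 258 UMI CPM in Jarid2 null cells. The clusters of largely undifferentiated cells split by genotype, and Pou4f2 stood at 52 UMI CPM in cluster 3 (311 of 335 cells WT), 17.2 in cluster 0 (334 of 386 Mtf2 null), 14.5 in cluster 8 (250 of 265 Jarid2 null) and 13.9 UMI CPM in cluster 6 (303 Eed null cells).

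Within cluster 4, which 3 genotypes shared, the genotypes could be set side by side. Here and in the other clusters, the cells of all days were pooled for each genotype. The genotypes were not matched for day, and the part of the mix of days in the differences was not tested. The intervals cover counting error only. Meis2 stood at 259 UMI CPM (224 to 299) in WT cells, 109 (90.3 to 130) in Mtf2 null and 184 UMI CPM (138 to 241) in Jarid2 null. Msx1 stood at 391 (347 to 439), 196 (171 to 224) and 324 UMI CPM (262 to 396). Msx2 stood at 390 (346 to 437), 404 (368 to 443) and 266 UMI CPM (210 to 332), so Meis2 and Msx1 were lower in Mtf2 null cells of this cluster while Msx2 was not. Prrx2 ran the other way, at 52.4 (37.3 to 71.6), 96.3 (79.1 to 116) and 92.2 UMI CPM (60.7 to 134).

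**Figure D5:**
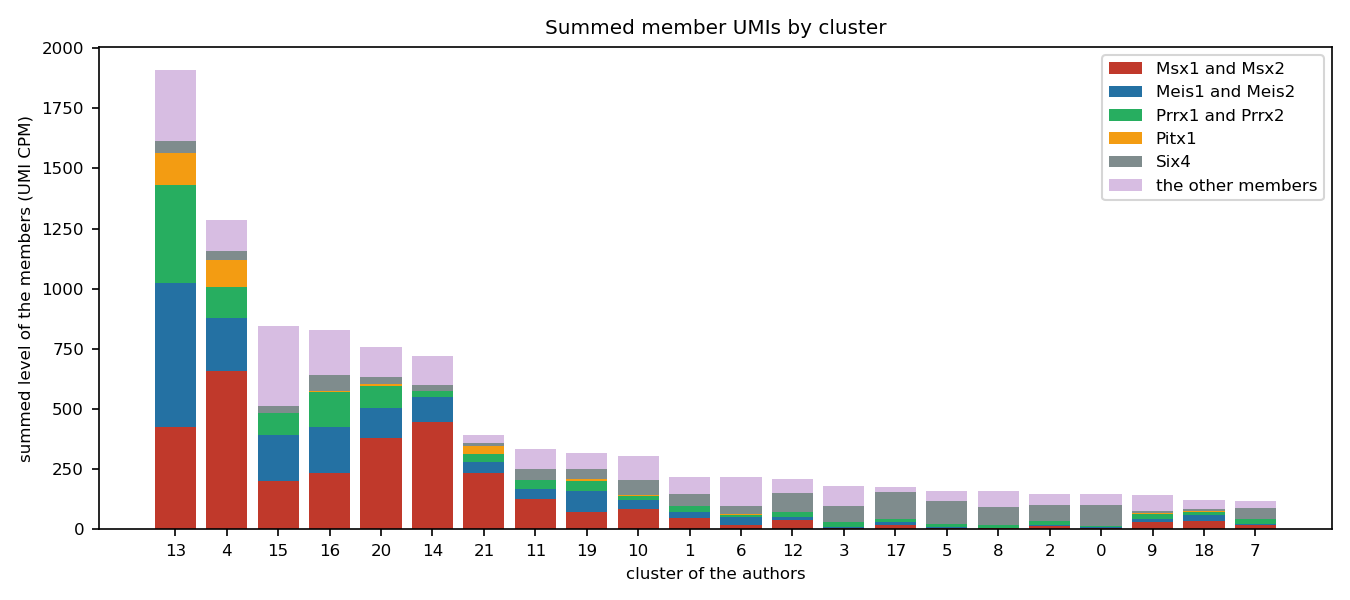
Summed UMI CPM of the members in each of the 22 clusters (stacked bars, ordered by their sum), divided into the Msx genes, the Meis genes, the Prrx genes, Pitx1, Six4 and the other members. Clusters 13 and 4 have the tallest bars, with 1910 and 1285 UMI CPM, and in cluster 15 the other members, among them Lhx5, Six6 and Emx2, take a large share.

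A list of 55 other homeobox genes outside the Hox clusters was counted with the same rules. In undifferentiated Mtf2 null cells 13 of them were tested, and Pknox2 (log2 fold change 2.01), whose product is related to MEIS proteins, and Nkx6-3 (1.91) were higher. At 48 h of the endoderm route it gave 8 calls among 27 tested, 5 of them higher, led by Lhx1 (5.19) and Hesx1 (4.11), where the rule called 10.5% of all genes. In bulk embryoid bodies it gave 5 of 36 under the label Mtf2 null, 1 under Jarid2 null and 7 under Eed null, all higher, with Shox2 (3.34) the largest, where the same rule called 18.4%, 14.8% and 10.9% of all genes.

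Of the 24 members tested in a directed fit, 9 were called in no directed comparison. Of the 18 not tested in bulk embryoid bodies, the highest value was 3.05 CPM. The 14 tested in no fit were Dlx1, Lhx3, Lhx4, Lhx5, Lhx8, Nkx2-1, Nkx2-2, Nkx3-2, Six6, Emx1, Emx2, Pitx3, Barhl1 and Vax1, most of them factors of the forebrain, eye and ventral neural tube.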

How the data were processed

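For the directed series, the authors quantified ribosomal RNA depleted libraries (KAPA HyperPrep with RiboErase) and deposited estimated counts per gene, which were rounded here. The labels name Salmon, Bowtie2, HTSeq, DESeq2 and CASAVA with GRCm38 and mm10, without versions. For bulk embryoid bodies, the authors deposited counts divided by size factors, a signal from which whole reads were recovered. For single cells, the authors deposited UMI counts (SORT-seq) of the cells that passed their filter, with their clusters. Low-quality wells and doublets were not filtered further. Columns of 1 embryoid body sample were summed. Of the 2 columns of the label Mtf2 null at day 0, 1 was left out of the reads by rule. Its size factor lay too near 1 to tell scaled from unscaled counts.

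Directed libraries were fitted with edgeR 4.0.16 (R 4.3.3, TMM scaling, quasi-likelihood test) with 1 term per genotype and time, separately for each route and once for all undifferentiated libraries, on genes passing filterByExpr (minimum count 10, minimum total 15). Calls required adjusted p-values below 0.001 together with a change of more than 1 on the log2 scale. limma 3.58.1 was used for the bulk embryoid bodies (log2 CPM, prior count 2, day as a block, 1 CPM in at least 4 samples, adjusted p under 0.05). DESeq2 1.42.0, other scalings and filters, and leaving out each library were tried. Single cells were summed per library, with exact intervals at 95% that cover counting error only. For Prrx2 with 0 UMIs, the level of 3 UMIs was given in place of such an interval. Sampling depth limits genes of a few reads. On simulated data with known changes, the directed fits recovered 74% (mesoderm), 68% (endoderm) and 92% (undifferentiated) of 4-fold changes, and the bulk fit 95%. False calls numbered 0, 1 and 0 in the directed fits and 10 in the bulk fit. The changed genes were drawn from all genes tested, so these shares do not describe members of a few reads. The bulk simulation gave every gene the same spread and held no effect of day, unlike the real samples.

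The members and lists were chosen with earlier results of these data known. Values in every library are given for members called in undifferentiated cells or at 48 h, embryoid body members are named when called, high at day 7 or high in UMIs, and other homeobox genes by at most 4 examples. Reads of members that overlap another gene (Meis1, Nkx6-2, Lhx6, Pitx1, Alx1, Emx2, Six6, Lhx5, Lhx3, Dlx1, Dlx4, Dlx6, Pitx3 and Nkx2-2) may be split or shared. Same-numbered directed replicates did not deviate together (correlations of -0.18 to 0.27), so they share only a number.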

Additional observations from a re-analysis of the deposited data

Results flagged for a closer look

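In 5 results the effect of Mtf2 loss at 48 h differed from that in undifferentiated cells, by the interaction term of the edgeR quasi-likelihood test (adjusted p below 0.001 and a change above 1 on the log2 scale). On the mesoderm route the effect changed by -3.13 for Nkx2-9 (SE 0.564, adjusted p = 0.000735), by -2.03 for Meis1 (SE 0.328, adjusted p = 0.000288) and by 2.96 for Lhx6 (SE 0.488, adjusted p = 0.000342). On the endoderm route it changed by 3.69 for Lhx6 (SE 0.607, adjusted p = 0.000148) and by 2.29 for Pou4f2 (SE 0.436, adjusted p = 0.000617). Of the 8 fits that each left out 1 library, the call was kept in 1 for Nkx2-9 (values from -3.82 to -2.63), 1 for Meis1 (-2.12 to -1.94) and 2 for Lhx6 on the mesoderm route, and in 5 for Lhx6 (3.22 to 4.32) and 2 for Pou4f2 (1.94 to 2.59) on the endoderm route. Both routes gave Lhx6 the same direction, from below WT in undifferentiated Mtf2 null cells, where it missed the threshold, to above WT at 48 h. With 2 libraries per group, single outlying samples were not tested for.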

How the results depend on the processing

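Counts of members called are given here with the comparison they belong to. A log2 limit of 2 left 3 in undifferentiated Mtf2 null cells and 0 under the label Jarid2 null, and 1, 1 and 0 at 5, 24 and 48 h of the mesoderm route, 1 at 5 h of the endoderm route for Mtf2, and 2 for the change over 48 h of the endoderm route under the label Jarid2 null. Fits with only the libraries compared gave 1 and 1 at 5 and 24 h of the mesoderm route, 5 for WT over 48 h of that route, 1 and 2 for Mtf2 null and the label Jarid2 null over 48 h of the endoderm route, and 0 and 1 for the Mtf2 interactions of the mesoderm and endoderm routes. DESeq2 gave 1 at 24 h of the mesoderm route, 3 for the label Jarid2 null over 48 h of it, 1 for its Mtf2 interaction and 1 for Mtf2 null over 48 h of the endoderm route. Without the filter on low counts there were 1 at 24 h and 9 over 48 h of the mesoderm route under the label Jarid2 null, 5 for the Mtf2 interaction of that route and 1 for the Jarid2 interaction of the endoderm route. The mesoderm or endoderm series alone gave 0 and 0 in undifferentiated cells labelled Jarid2 null. With the replicate number as a block, 1 member was called at 24 h of the mesoderm route for Mtf2, every other count stayed within 1.5 times, and the numbers gave no pairing.

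In bulk embryoid bodies the label Mtf2 null gave 3 without the filter, 1 without the day block, 12 without day 0, 1 without day 4, 1 without day 7 and 11 with edgeR on the recovered reads. The label Jarid2 null gave 1 without the filter, 0 without the day block, 1 without day 0, 2 or 7 and 0 without day 4. The label Eed null gave 2 without the day block, 3 without day 2, 2 without day 4 and 5 without day 7. The summed members of day 0 Mtf2 null single cells were 128 UMI CPM after thinning each cell to 2500 UMIs.

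Leaving out 1 library gave 6 in every fit of undifferentiated Mtf2 null cells and 1 in every fit under the label Jarid2 null. For Mtf2 null against WT it gave 1 to 2, 1 and 1 to 3 at 5, 24 and 48 h of the mesoderm route and 1 to 2, 1 and 2 to 3 of the endoderm route. Over 48 h of the mesoderm route it gave 5 to 7 in WT, 2 to 3 in Mtf2 null and 3 to 4 under the label Jarid2 null, and over 48 h of the endoderm route 3 to 4, 1 to 2 and 2 to 5. The Mtf2 interactions gave 0 to 1 (mesoderm) and 0 to 2 (endoderm), and the Jarid2 interaction of the mesoderm route 0 to 1. The comparisons of the label Jarid2 null with WT gave 0 at each time of both routes. No value changed direction, and the causes of the changes in count were not tested.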
